A study of Caenorhabditis elegans with 8 samples.

Results

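The genes described here are the major sperm protein genes (msp) and 3 families of small sperm genes (ssp, ssq and nspd) of Caenorhabditis elegans. They were chosen by name alone, as every row whose gene name starts with msp-, ssp-, ssq- or nspd-. This gave 57 of the 20541 genes in each table, made up of 31 msp, 12 ssp, 4 ssq and 10 nspd genes. Whole young adult worms of 2 strains were compared, the wild type N2 and HC125, in polyadenylated RNA. The series design describes the second strain as carrying Psid-1::gfp, green fluorescent protein under the promoter of sid-1, and HC125 is taken here to be that strain, since N2 is the wild type. The sources used here do not say how the transgene is carried or whether it drives expression in the germ line. Each strain has 4 libraries. An experiment with paired-end reads, prepared with the Illumina TruSeq v2 kit and carrying no information on strand, holds replicates 1 and 2. An experiment with single-end stranded reads, prepared on the Apollo 324 system, holds replicates 3 and 4. All worms were young adults, synchronized by a timed egg lay.

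Major sperm protein is the small cytoskeletal protein of nematode sperm. It assembles into filaments that push the crawling sperm forward, since these cells lack an actin-based motility system, and it is also released as a signal that makes oocytes resume meiosis and the surrounding sheath contract. Hermaphrodites make their sperm late in larval life, store them, and then switch the germ line to oocytes. The ssp genes (sperm-specific family, class P) encode short proteins related to the major sperm protein domain, the ssq genes (sperm-specific family, class Q) encode longer proteins, and the nspd genes (nematode-specific peptide family, group D) encode very short peptides of unknown function.

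For each gene, strain and experiment the deposited tables hold 1 value in FPKM, that is fragments per kilobase of transcript relative to all mapped fragments. Each value combines 2 libraries, so the spread between libraries is not known, and neither is the number of reads behind a value. Whether the libraries stem from separate cultures is not labelled, and the p-values below reflect only how far these libraries differ, possibly for technical reasons. The gene sid-1, whose promoter the transgene carries, was at 31.9 (N2) and 2.11 FPKM (HC125) with paired-end reads, and at 12.9 and 0.818 FPKM with single-end reads (q = 0.0270 and q = 0.0411 in the authors' deposited tables). The labels state no expected level of sid-1 in HC125, so this describes the strains and does not check their labels. The 2 tables were normalized separately and come from different library kits, so levels set side by side across them below carry no test. Pairs of FPKM values below give N2 first and HC125 second; where 2 pairs follow each other for 1 gene, the paired-end pair comes first unless stated. Genes named outside the rule given under the processing (msp-19, msp-31, msp-32, msp-38, msp-56, msp-63, msp-74, ssp-9, ssp-32, ssp-33, ssp-37, nspd-8, msd-1, gsp-3, gsp-4, spe-44, cwp-1 and pkd-2) were chosen after their values were seen.

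The families are short genes that lie close together. Of the 31 msp genes, 28 have the same coding length of 384 nucleotides, which gives a protein of 127 residues, and each of them is a single exon in the WBcel235 annotation. The exceptions are msp-32 at 360 nucleotides and msp-58 and msp-74 at 234 nucleotides. Among the ssp genes, 6 encode 107 residues, 5 encode 109 and ssp-37 encodes 112. The nspd peptides have 70, 71 or 73 residues. The ssq proteins are the longest, with 290 residues for ssq-1, 371 for ssq-3, 373 for ssq-4 and 405 for ssq-2. Near copies can share reads, so the division of reads among msp genes, and among the shorter families, may be uncertain; it was not tested.

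Chromosome IV holds 32 of the 57 genes, chromosome II 15, chromosome I 7, chromosome V 2 and chromosome III 1, while none is on X. All 31 msp genes are on II (13) or IV (18), and all 4 ssq genes are on IV. Joining members less than 500 kb apart, 43 of the 57 fell into 3 stretches. The first runs from 4785861 to 5200222 on chromosome II with 10 msp and 2 nspd genes. The second runs from 4994325 to 5316944 on chromosome IV and holds 9 msp, 2 ssp, 2 ssq and 2 nspd genes. The third runs from 9688982 to 10738658 on chromosome IV with 9 msp, 4 ssp, 1 ssq and 2 nspd genes. Both strands are used, with 17 msp genes on plus and 14 on minus. Positions are those of the files, counted from 1, and were compared with WBcel235 as set out under the processing.

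With single-end reads every tested member had a higher value in HC125 than in N2. The median ratio was 2.06, and single ratios ran from 1.25 to 3.19. With paired-end reads the same genes stood at nearly equal values in both strains. No member passed the authors' test over all genes in either experiment. Summed over all 57 genes, FPKM went from 602 in N2 to 1151 in HC125 with single-end reads, a ratio of 1.91, and from 4120 to 4474 with paired-end reads, a ratio of 1.09. These genes made up 0.0567% of all summed FPKM in N2 and 0.112% in HC125 in the single-end table. In the paired-end table they made up 0.439% and 0.470%. In whole worms, more sperm cells and more of this RNA per cell in HC125 cannot be told apart.

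**Figure D1:**
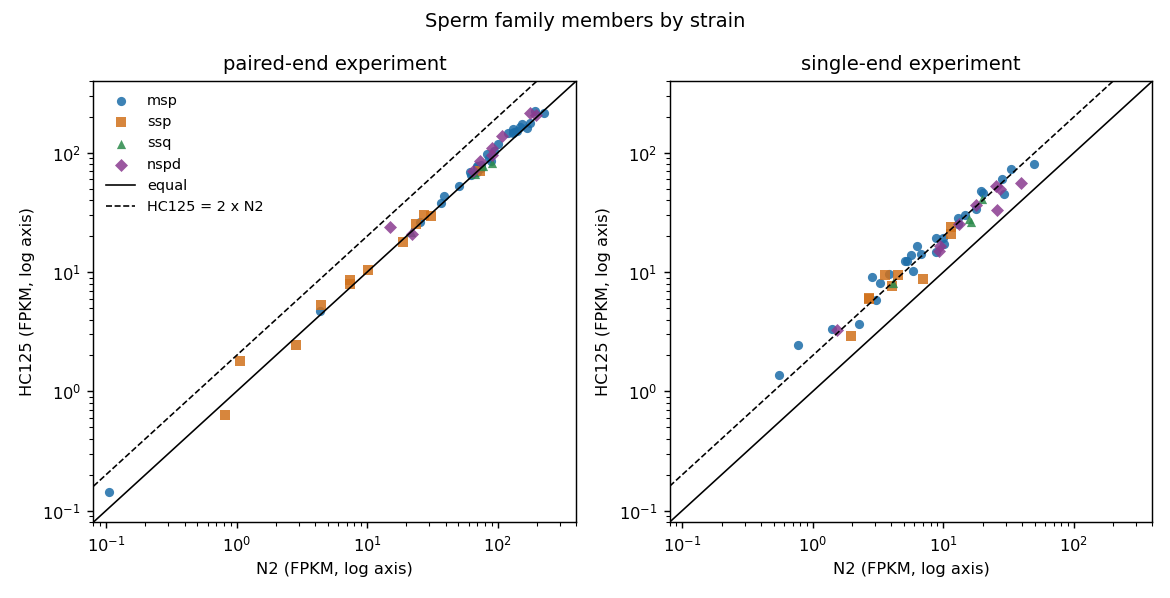
FPKM of each member in N2 (x axis) and HC125 (y axis), both on log axes, in the paired-end (left) and single-end (right) experiments, with colour and marker by family; the solid line marks equal values and the dashed line double values in HC125. The 54 members above 0 in both strains follow the solid line on the left, and the 50 on the right lie around the dashed line; members at 0 in a strain (3 and 7) cannot be drawn.

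The test over all genes called 0.212% of 15114 genes in the paired-end table and 0.122% of 13150 in the single-end table at a q of 0.05 or less (Cuffdiff test, adjusted over all tested genes, in the authors' deposited tables). Of the members, 54 were tested in the first and 50 in the second, and 0 were called in each. At an unadjusted deposited p under 0.05, 26 of the 50 were higher with single-end reads and 0 lower, beside 1.22% higher and 1.16% lower over all tested genes. The 26 members are 52.0% of the members tested and 16.1% of the 161 genes that were higher at that p. With paired-end reads 0 of 54 were higher and 1 lower, beside 0.926% and 0.351% over all tested genes. In both tables these shares over all genes are less than a threshold of 0.05 would give with no differences. The deposited test may thus be too strict to call a member, and 0 called does not show equal values in the strains. A combination of both tables' signed p-values (Stouffer) called 0 of 50 members, beside 0.185% higher and 0.0849% lower of 12954 genes; the smallest adjusted p among the members was 0.375, that of msp-152.

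By direction alone, 50 of 50 members had the higher value in HC125 with single-end reads, beside 40.0% of all tested genes. With paired-end reads this held for 40 of 54, beside 41.7%. It held in both tables for 38 of the 50 members tested in both, beside 17.5% of all genes. In size, 46 of 50 members were over 1.5 times the N2 value with single-end reads, beside 6.02% of tested genes, and 27 were over 2 times, beside 2.76%. With paired-end reads 2 of 54 were over 1.5 times, ssp-36 and nspd-9, beside 5.93%, and 0 over 2 times, beside 3.22%. Near copies can share reads, so these counts are not counts of independent genes.

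The msp family had the highest single-end ratio of the families. Its summed FPKM was 328 in N2 and 664 in HC125, a ratio of 2.02. The median log2(FPKM + 1) ratio of 28 tested genes was 0.99, against -0.04 over all tested genes, where the pseudocount of 1 shrinks the ratio of low genes. Single ratios of the FPKM themselves ran from 1.54 for msp-31 to 3.19 for msp-56, and 28 of 28 were over 1.5. At an unadjusted deposited p under 0.05, 19 of the 28 were higher and 0 lower. With paired-end reads the sums were 2816 and 3044 FPKM, a ratio of 1.08, and 23 of 29 tested genes were higher, with a median log2(FPKM + 1) ratio of 0.12 against -0.03 over all tested genes.

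The ssp family followed, with summed FPKM of 49.3 in N2 and 95.6 in HC125 with single-end reads, a ratio of 1.94. Of its 9 tested genes 9 were higher, 1 of them at an unadjusted deposited p under 0.05, and the median log2(FPKM + 1) ratio was 0.91. These medians depend on the pseudocount: with 10 in place of 1, the single-end medians were 0.34 for ssp, 0.56 for msp, 0.52 for ssq and 0.45 for nspd, all still above 0. The paired-end sums were 208 and 211 FPKM, with 7 of 12 tested genes higher and a median of 0.05. The ssq family had sums of 55.9 and 103 FPKM with single-end reads, a ratio of 1.85, with 4 of 4 higher, 3 at that p, and a median of 0.81. Its paired-end sums were 257 and 248 FPKM, a ratio of 0.968, with 2 of 4 higher and a median of -0.01. The sign of that last median turns when ratios are centred on all genes.

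The nspd family had the lowest single-end ratio of the families, with sums of 169 and 288 FPKM, a ratio of 1.71. All 9 of its tested genes were higher there, 3 of them at an unadjusted deposited p under 0.05, and the median log2(FPKM + 1) ratio was 0.75. With paired-end reads it had the highest ratio of the families, with sums of 839 and 971 FPKM, a ratio of 1.16, and 8 of 9 tested genes higher with a median of 0.22. The order of the families with single-end reads (msp, ssp, ssq, nspd) therefore differed from that with paired-end reads (nspd, msp, ssp, ssq). With single-end reads the family ratios lay between 1.71 and 2.02. The differences among families were not tested.

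**Figure D2:**
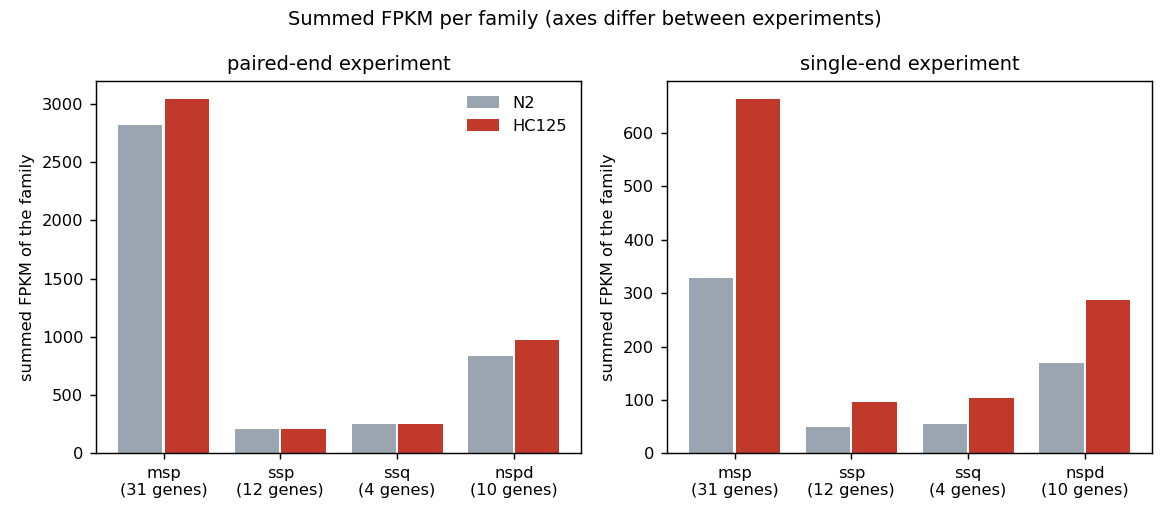
Summed FPKM (y axis, from 0) of all members of each family in N2 (grey) and HC125 (red), with 1 deposited value per gene and strain and therefore no error bars; the y axes differ between the experiments. The msp sums stand at 2816 and 3044 FPKM with paired-end reads and at 328 and 664 FPKM with single-end reads.

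**Figure D3:**
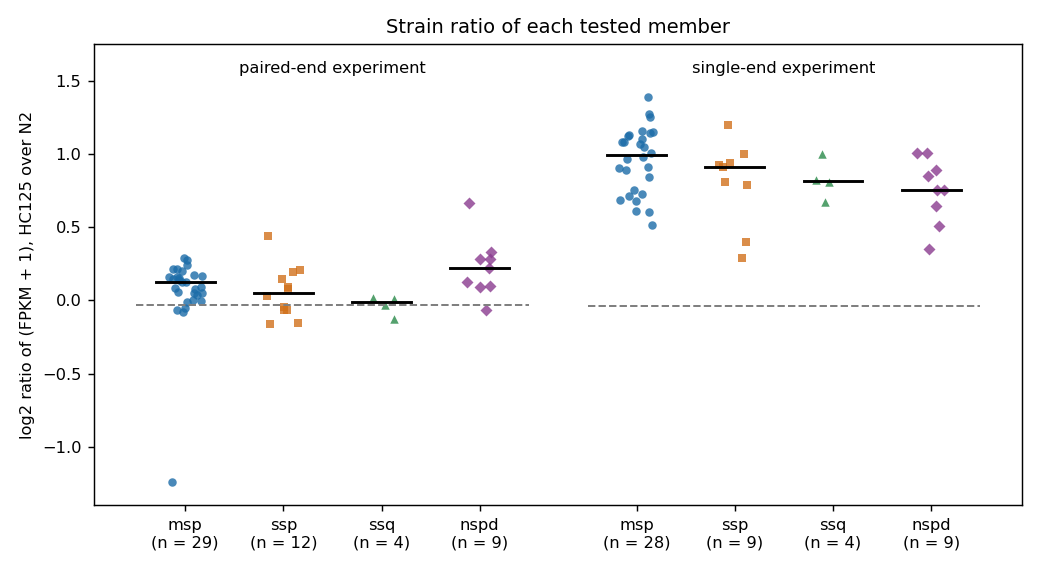
log2 ratio of (FPKM + 1) of HC125 over N2 (y axis) for each tested member, by family and experiment; black bars are family medians, and the dashed grey lines are the medians over all tested genes (-0.03 and -0.04). All single-end points lie above 0, with family medians from 0.75 to 0.99, while paired-end medians lie between -0.01 and 0.22. The lowest paired-end point is msp-58, listed at 0 in HC125.

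Among single msp genes, msp-152 had the smallest p of all members with single-end reads. It was at 32.7 (N2) and 72.5 FPKM (HC125), a ratio of 2.22 (95% interval 1.22 to 4.01), with p = 0.00020 and q = 0.132 in the authors' deposited table. In all, 20 of the 13150 tested genes had a p that small or smaller. With paired-end reads msp-152 stood at 192 and 223 FPKM, a ratio of 1.16 (0.613 to 2.196). The intervals here rest on the error that the deposited test statistic implies and can disagree with the deposited p: with single-end reads they lay above 1 for 8 of 50 members, and for another 18 they included 1 although the deposited p was under 0.05.

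The most abundant msp gene was msp-36, first of 31 in N2 in both tables. It was at 228 (N2) and 217 FPKM (HC125) with paired-end reads. With single-end reads it was at 49.6 and 79.9 FPKM, a ratio of 1.61 (95% interval 0.957 to 2.72; p = 0.0160 in the authors' deposited table). That ratio is among the lower ones of the family, although the gene has the highest level. Over the 28 msp genes tested in both tables, level and ratio were hardly ordered alike. Spearman's rho of the N2 FPKM with the log2(FPKM + 1) ratio was 0.04 with single-end and 0.13 with paired-end reads. This is a description over genes that share libraries and reads. The N2 value is also part of the ratio, and the pseudocount shrinks the ratio of low genes. A rho near 0 therefore does not show that level and ratio are unrelated.

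Further msp genes of high level showed the same contrast between experiments. With single-end reads msp-76 was at 28.2 (N2) and 60.2 FPKM (HC125), a ratio of 2.13 (95% interval 1.16 to 3.92; p = 0.00110 in the authors' deposited table). With paired-end reads it was at 169 and 161 FPKM, a ratio of 0.953, so the strains stood in the opposite order by a margin well inside its error. The gene msp-81 was at 177 FPKM in both strains with paired-end reads and at 13.1 and 25.5 FPKM with single-end reads. The gene msp-59 was at 153 and 176 FPKM, then 12.97 and 28.5 FPKM.

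The genes msp-33, msp-57, msp-50 and msp-64 were among the 8 members of smallest single-end p. The first of them, msp-33, was at 19.5 (N2) and 47.7 FPKM (HC125), a ratio of 2.45 (95% interval 1.17 to 5.10), and at 149 and 165 FPKM with paired-end reads. It overlaps gst-9 on the opposite strand, and where the 2 genes share sequence, paired-end reads cannot be assigned by strand. Whether their exons overlap was not examined. The gene msp-57 was at 20.3 and 46.2 FPKM, a ratio of 2.28, and at 131 and 160 FPKM with paired-end reads, where its ratio of 1.23 was the highest of the tested msp genes. For msp-50 the single-end values were 6.28 and 16.6 FPKM and for msp-64 they were 14.5 and 30.1 FPKM. Their paired-end values were 131 and 148 FPKM, and 101 and 118 FPKM. All 4 had the higher value in HC125 in both tables. The gene msp-51, named for its paired-end p of 0.413 in the authors' deposited table, was at 120 and 146 FPKM there and at 5.86 and 10.3 FPKM with single-end reads.

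Across the 28 msp genes of 384 nucleotides, paired-end values ran from 4.37 to 228 FPKM in N2 (median 87.4) and from 4.68 to 223 FPKM in HC125 (median 94.3). Single-end values ran from 0.552 to 49.6 FPKM in N2 (median 7.74) and from 1.37 to 79.9 FPKM in HC125 (median 15.6). The lowest in every column was msp-63. The strains' ranges overlap in both tables, since the members differ far more from each other than the strains do.

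The 3 shorter msp genes were at or near 0. The gene msp-74 was listed at 0 in both strains in both tables, and msp-32 had at most 0.143 FPKM; neither was tested in either table. The gene msp-58 was at 1.36 FPKM in N2 and listed at 0 in HC125 with paired-end reads (p = 0.0229 in the authors' deposited table, q = 1.00). With single-end reads it was listed at 0 in N2 and stood at 0.480 FPKM in HC125, without a test. It was the only member below an unadjusted p of 0.05 with paired-end reads, and its strains stood in opposite order in the 2 tables. The nspd gene nspd-8 was also listed at 0 throughout.

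**Figure D4:**
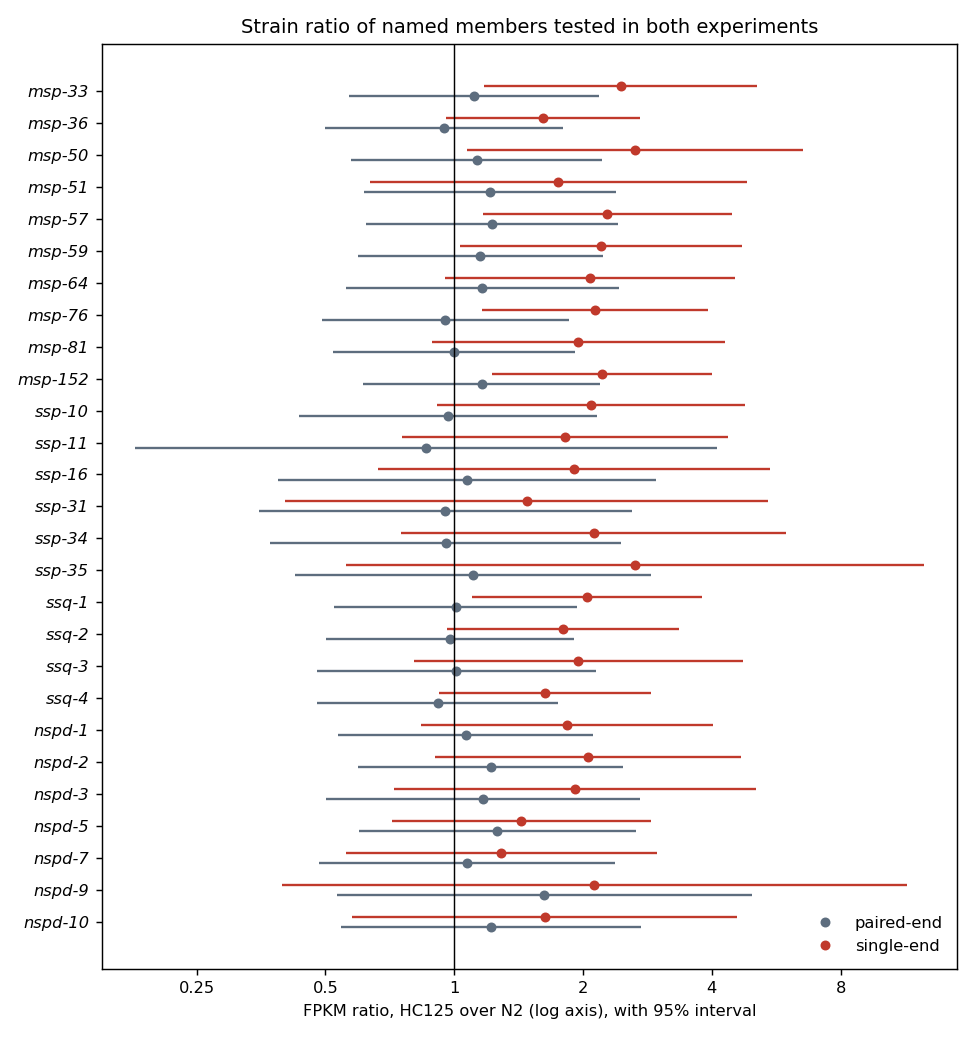
FPKM ratio of HC125 over N2 (x axis, log) with its 95% interval for the named members tested in both experiments (rows), from the error that the deposited test statistic implies; grey is the paired-end and red the single-end experiment, and the vertical line marks equal values. Every red point lies to the right of the grey point of the same gene, and for each gene the grey and red intervals overlap.

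The ssp genes were lower than most msp genes, with medians of 8.80 (N2) and 9.48 FPKM (HC125) with paired-end reads. Their highest member there, ssp-10, was at 73.3 and 70.9 FPKM, and with single-end reads at 11.4 and 23.7 FPKM, a ratio of 2.09 (95% interval 0.910 to 4.79; p = 0.0179 in the authors' deposited table). It was the only ssp gene below an unadjusted p of 0.05. The gene ssp-35 had the highest single-end ratio of the family at 2.65, from 3.60 to 9.53 FPKM, but with an interval of 0.560 to 12.5; its paired-end values were 27.3 and 30.2 FPKM. The gene ssp-34 was at 30.8 and 29.3 FPKM, then 4.47 and 9.47 FPKM, ssp-16 at 23.5 and 25.2 FPKM, then 4.04 and 7.69 FPKM, and ssp-31 at 18.9 and 18.01 FPKM, then 1.96 and 2.89 FPKM. In each of these the single-end ratio was above the paired-end ratio.

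Some ssp genes were too low for a test with single-end reads. The gene ssp-9 was listed at 0 in N2 and was at 0.653 FPKM in HC125, and ssp-36 was listed at 0 in N2 and was at 0.203 FPKM in HC125. The gene ssp-32 was at 0.0727 FPKM in N2 and listed at 0 in HC125, so 1 of the 3 went the other way. With paired-end reads these genes were tested, and ssp-36 there was at 1.06 and 1.79 FPKM, a ratio of 1.69 with an interval of 0.284 to 10.1. The remaining tested ssp gene of a low single-end ratio, ssp-37, was at 6.94 and 8.68 FPKM, a ratio of 1.25, the lowest of all 50 members tested there.

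The ssq genes were the steadiest family with paired-end reads. Highest there was ssq-4, at 90.3 (N2) and 82.6 FPKM (HC125), and with single-end reads it was at 16.1 and 26.3 FPKM, a ratio of 1.63. The gene ssq-1 was at 77.4 and 78.1 FPKM, then 19.9 and 40.7 FPKM, a ratio of 2.04 (95% interval 1.099 to 3.80; p = 0.00560 in the authors' deposited table). It was the only member outside the msp family among the 8 of smallest single-end p. The gene ssq-2 was at 67.4 and 66.0 FPKM, then 15.7 and 28.1 FPKM, and ssq-3 at 21.6 and 21.8 FPKM, then 4.15 and 8.09 FPKM. Their paired-end ratios thus all lay between 0.914 and 1.01.

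Of the nspd genes, nspd-1 was at 196 (N2) and 209 FPKM (HC125) with paired-end reads, and at 26.96 and 49.4 FPKM with single-end reads. The gene nspd-2 was at 177 and 215 FPKM, then 25.5 and 52.4 FPKM, a single-end ratio of 2.05 (95% interval 0.900 to 4.68; p = 0.0194 in the authors' deposited table). Both are at levels like those of the upper msp genes in the same table, per length. The ratios of nspd-5 were closest between experiments, with 109 and 137 FPKM, a ratio of 1.26, and 39.2 and 56.3 FPKM, a ratio of 1.44. The gene nspd-7 was at 90.1 and 96.5 FPKM, then 25.8 and 33.2 FPKM, nspd-3 at 73.8 and 86.1 FPKM, then 13.1 and 25.1 FPKM, and nspd-10 at 90.8 and 111 FPKM, then 9.27 and 15.1 FPKM. The gene nspd-9, the only member on chromosome III, had the highest paired-end ratio of the family at 1.62, from 14.8 to 24.1 FPKM (interval 0.533 to 4.95), and was at 1.53 and 3.26 FPKM with single-end reads.

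The difference between the experiments was tested gene by gene. For 50 of the 50 members tested in both tables the single-end log2(FPKM + 1) ratio exceeded the paired-end one, beside 50.2% of all genes tested in both. On the log2 scale of FPKM the single-end minus paired-end difference had a median of 0.91 and ran from 0.19 for nspd-5 to 1.62 for msp-56. In a z test of that difference on the implied errors, adjusted over 12921 genes, 0 of 50 members were called, beside 0.00774% of those genes. At an unadjusted threshold of 0.05, 0 of 50 had a larger single-end ratio, beside 0.0697% of all genes. The smallest unadjusted value among the 50 members was 0.080, for msp-76. In either direction, 0.317% of the 12921 genes fell under 0.05, far less than that threshold would give with no differences. The implied errors may thus be too wide for this test to call a member. For a single gene the difference was within this error, which does not show that the experiments agree. In data simulated with noise drawn from these errors, the same test recovered 2% of genes with a true log2 difference of 1. Few differences of this size would therefore be called, and the simulation took the errors as correct.

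The order of members by level was similar in both tables but not the same. Over the 31 msp genes Spearman's rho between the tables was 0.796 for N2 FPKM and 0.823 for HC125 FPKM, and over the 10 nspd genes it was 0.794 and 0.782. Over the 12 ssp genes it was 0.497 and 0.650. The gene msp-19 was eighth among msp genes in N2 with paired-end reads at 134 FPKM, and number 26 with single-end reads at 1.40 FPKM. The reverse held for ssp-11, which was at 2.87 FPKM in N2, number 10 of 12, with paired-end reads and at 11.4 FPKM, the highest, with single-end reads. The WBcel235 annotation gives the name ssp-9 both to this gene and to the ssp-9 described above. The deposited names are used here. Whether reads were shared with near copies differently in the 2 tables was not tested. The strain ratios themselves were barely ordered alike between the tables, with a Spearman's rho of 0.145 over 50 members.

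In the 3 largest stretches the other genes had median strain ratios near 1. In the stretch on chromosome II the 10 tested members had a median log2(FPKM + 1) ratio of 0.95 with single-end reads, and the 76 other tested genes inside it had a median of -0.02, with 34 of them higher in HC125. In the stretch of chromosome IV near 5 Mb the medians were 0.84 over 13 members and 0.09 over 45 other genes, with 28 higher. In that near 10 Mb they were 0.99 over 14 members and -0.05 over 175 other genes, with 66 higher. Over the 3 stretches, 3 of 76, 1 of 45 and 5 of 175 other genes were higher at an unadjusted deposited p under 0.05. Of all genes tested with single-end reads, 1.22% were higher at that p and 40.0% were higher by direction alone. The difference between members and neighbours was not tested. In a short stretch on chromosome I, from 6097496 to 6102465, the 2 other tested genes stood close to the members: their median was 0.65, both were higher and 1 had an unadjusted deposited p under 0.05, beside a median of 0.82 for nspd-1 and ssp-16. The members that stand alone varied more, from 0.29 for ssp-37 and 0.40 for ssp-31 over 0.65 for nspd-10, 0.75 for nspd-9, 0.82 for ssq-3 and 0.91 for ssp-33 to 1.19 for ssp-35.

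By their median single-end ratio, other genes with a major sperm protein domain lay between the families and the remaining lists. Of 8 listed names 5 were found and 4 were tested. With single-end reads 4 of 4 were higher in HC125, 2 at an unadjusted deposited p under 0.05 and 0 called. The gene msd-2 was at 42.1 (N2) and 74.4 FPKM (HC125) (p = 0.00505 in the authors' deposited table), and msd-4 at 40.2 and 65.7 FPKM (p = 0.0231 in the same table). Their paired-end values were 80.3 and 104 FPKM, and 169 and 187 FPKM. The gene vpr-1, whose product carries such a domain but is made in many tissues, was at 132 and 141 FPKM in the single-end and at 218 and 213 FPKM with paired-end reads.

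Genes of sperm function outside these families had single-end ratios nearer to 1. Of 35 found, 20 were tested with single-end reads, 12 of which were higher in HC125, with 0 called and 0 at an unadjusted deposited p under 0.05. Their median log2(FPKM + 1) ratio was 0.08 and their median FPKM ratio 1.07. The list's most abundant genes, spe-39 and frm-10, stood at 99.7 and 97.8 FPKM and 28.1 and 27.6 FPKM, and spe-39 is also known outside sperm. The gene smz-1, needed in sperm meiosis, was at 2.48 and 4.21 FPKM. The sperm phosphatase genes gsp-3 and gsp-4 stood at 4.72 and 8.30 FPKM and 7.17 and 11.5 FPKM, while spe-44, a regulator of spermatogenesis genes, was at 12.4 and 13.2 FPKM. Of the 20 tested, 6 were over 1.5 times the N2 value. With paired-end reads 9 of 34 tested were higher, with a median of -0.06 and 0 called.

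The genes by which oocytes and sheath respond to major sperm protein had nearly equal values. Of 16 tested, 8 were higher with single-end reads, with a median log2(FPKM + 1) ratio of -0.00, and 1 was higher with paired-end reads, with a median of -0.07; 0 were called in either table, and 0 had an unadjusted deposited p under 0.05. The oocyte maturation genes oma-2 and oma-1 stood at 545 and 537 FPKM and 261 and 250 FPKM with single-end reads. The adaptor gene dab-1 was at 105 and 114 FPKM there. Of the 17 genes that set sperm or oocyte fate, 7 were higher in the single-end and 5 with paired-end reads, with 0 called and medians of -0.02 and -0.07. Among them the translational repressor gene gld-1 was at 435 and 398 FPKM with single-end reads, fem-2 at 87.0 and 81.8 FPKM and nos-3 at 46.1 and 45.8 FPKM.

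Markers of other cell types were read beside the single-end result. Oocyte and eggshell genes summed to 15175 (N2) and 14273 FPKM (HC125), with 4 of 20 tested genes higher and a median log2(FPKM + 1) ratio of -0.08, in the single-end table. General germ line genes summed to 2490 and 2369 FPKM, with 3 of 13 higher and a median of -0.05. Intestine genes had 5 of 10 higher with a median of -0.00, and body wall muscle genes 9 of 10 higher with a median of 0.14 and 1 called, unc-54, at 125 and 341 FPKM (q = 0.0411 in the authors' deposited table). With paired-end reads 1 of 10 muscle genes and 0 of 8 tested intestine genes were higher, with medians of -0.17 and -0.20. Of the oocyte and eggshell genes 2 of 21 were higher there, and of the germ line genes 7 of 13, with medians of -0.13 and 0.002. None of these genes was called with paired-end reads, where unc-54 was at 168 and 208 FPKM. The part of these markers in the sperm gene values was not tested.

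Markers of males were low in both strains. Of 14 such genes, 4 were tested with single-end reads and 13 were under 1 FPKM in both strains. The male neuron gene cwp-1 was listed at 0 in both strains in both tables, and pkd-2 had at most 0.0260 FPKM. The male fate gene her-1 was at 0.598 (N2) and 0.975 FPKM (HC125) with single-end reads, and at 0.974 and 0.561 FPKM with paired-end reads. The seminal fluid protease gene try-5 stood at 0.888 and 0.869 FPKM with paired-end and at 0.725 and 0.792 FPKM with single-end reads. Only swm-1, a protease inhibitor, was abundant, at 40.7 and 36.3 FPKM with paired-end and at 89.9 and 94.0 FPKM with single-end reads.

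**Figure D5:**
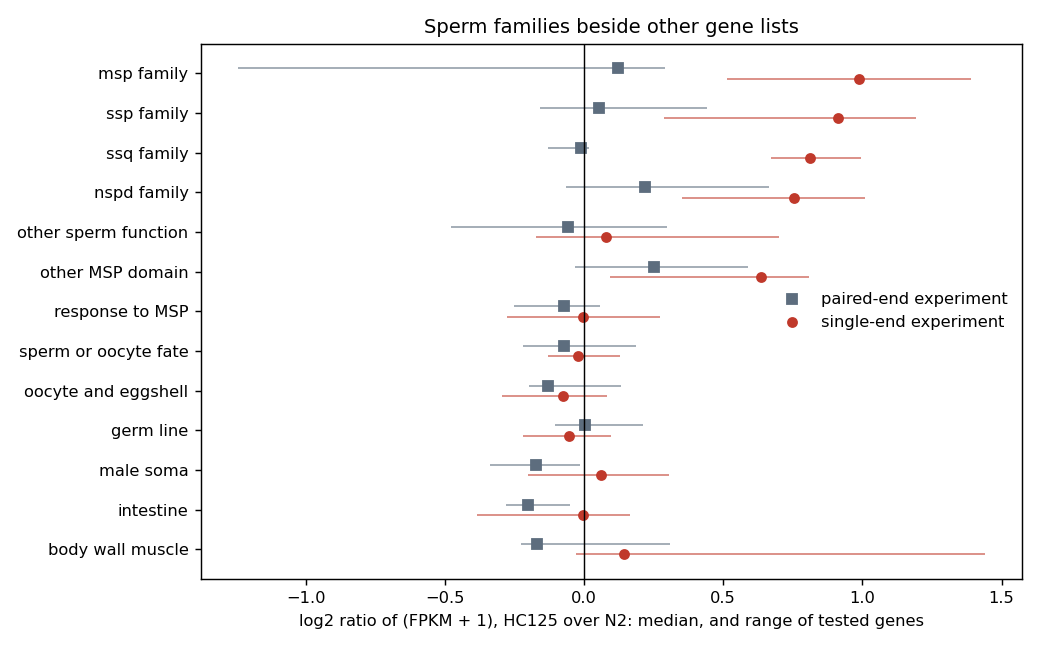
Median (marker) and range over tested genes (line) of the log2 ratio of (FPKM + 1), HC125 over N2 (x axis), for the sperm families and the 9 other gene lists (rows), with grey squares for the paired-end and red circles for the single-end experiment. The single-end medians of the families (0.75 to 0.99) and of the other major sperm protein domain genes (0.64) lie to the right of those of all other lists, which run from -0.08 to 0.14.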

How the data were processed

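Each experiment has 1 table in Cuffdiff layout, per the file headers, and TopHat2 2.0.1 with Cufflinks 2.2.1 is listed in the submitters' processing notes; for the build, annotation and settings, nothing is given in the sources used here. The FPKM values, pooled over 2 libraries per strain, the test score per gene, and the p-value and q-value were deposited by the authors. The tables give no depth. Recomputed Benjamini-Hochberg values matched the deposited q to rounding. Members were tested where the status was complete; sums also used genes marked as too low to test. The implied error is the log2 ratio divided by the test score; it gives the 95% intervals and the z test of ratio differences. The Stouffer and z steps were tested on simulated data (50 changed genes at each of 4 sizes; Python 3.11.15, scipy 1.17.1). Of 2608 genes whose end matches WBcel235 and whose start matches it exactly or by 1, 96.4% start 1 lower, so file starts are counted from 0 and 1 was added. The position can be that of a merged locus where genes overlap (msp-31). Other positions also span more than the annotated gene, such as those of msp-33 (1995 bp), ssp-35 (2042 bp) and nspd-10 (3364 bp). For ssp-35 and nspd-10 no overlapping gene was found in the annotation, so overlap of annotated genes does not account for their span. Coding lengths and strands are from Ensembl's WBcel235 annotation. Named genes were, per family, the 6 of highest mean FPKM, the 8 of smallest p per table, any called, and per other list the 3 of highest mean FPKM and any called; since the reference used holds no sequence, none is printed and its part of the rule was void. Members, lists and tests were chosen with earlier results of these data known.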

Additional observations from a re-analysis of the deposited data

How the results depend on the processing

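No member was called after a filter at 1 FPKM or in the combination of both tables. A stricter q of 0.01 could call none either, since none was called at a q of 0.05. Lowering the unadjusted threshold to p under 0.01 left 7 of the 26 higher members with single-end reads and 0 of the 1 lower member with paired-end reads. The median log2 ratio of the ssq family with paired-end reads (-0.01) became 0.0204 when centred on all tested genes and 0.0122 without ssq-4, which overlaps another gene (chosen after seeing the data); no direction is given for it. The other medians and sums kept their direction under all alternatives run; with no replicate values, no error of a family value was available to judge how far they moved. A pseudocount of 10 took the single-end medians from 0.99 to 0.56 (msp), 0.91 to 0.34 (ssp), 0.81 to 0.52 (ssq) and 0.75 to 0.45 (nspd). Summed single-end ratios stayed between 1.71 and 2.10 over all alternatives. No paired analysis was possible because the tables hold 1 pooled value per strain and no replicate columns; leaving out replicates was not run for the same reason.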

Other observations

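Where 2 pairs of FPKM values follow each other, the paired-end pair comes first, each with N2 before HC125. A few members overlap another gene, and the values of these hosts were set beside theirs. The gene aagr-2, which contains msp-31 on the same strand, was at 125 (N2) and 121 FPKM (HC125) with paired-end reads and at 75.01 and 66.8 FPKM with single-end reads. The error of msp-31 was the largest of all members, with a 95% interval of its single-end ratio from 0.0941 to 25.2. The gene dhs-12, with msp-38 on its opposite strand, was at 88.5 and 97.2 FPKM, then 403 and 416 FPKM, while msp-38 was at 62.9 and 64.6 FPKM, then 3.86 and 9.64 FPKM. The gene T28H11.7, on the strand opposite to ssq-4, was at 15.97 and 17.5 FPKM, then 4.39 and 4.75 FPKM. The gene gst-9, opposite to msp-33, was at 3.72 and 2.48 FPKM, then 1.12 and 1.13 FPKM. The gene srb-13, which overlaps msp-45 on the same strand, had at most 0.0515 FPKM. With single-end reads aagr-2, gst-9, dhs-12 and T28H11.7 had p-values of 0.347 to 0.989 in the authors' deposited table. Of these hosts aagr-2 had the lower value in HC125, and gst-9, dhs-12 and T28H11.7 had the higher one. The members that overlap them all had the higher value in HC125. Their p-values in the same deposited table were 0.686 (msp-31), 0.00265 (msp-33), 0.022 (msp-38) and 0.048 (ssq-4). The difference between hosts and members was not tested.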
